A study of Homo sapiens with 6 samples.

Results

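The 37 genes of the human mitochondrial genome were followed in 786-0 cells, a line from a clear cell renal cell carcinoma, across DMSO, 100 nM and 300 nM decitabine. Members were all genes that the count tables place on chromosome M, 37 of the 58381 genes counted. They comprise 13 mRNAs, 2 rRNAs and 22 tRNAs, and these classes are described apart. A filter on low counts kept 17 members for testing: all 13 mRNAs, both rRNAs and 2 tRNAs. All cells carried a knockout of SETD2, the enzyme that trimethylates histone H3 at lysine 36, the DMSO cells included. Decitabine is a cytidine analogue that traps DNA methyltransferases. Dosing, with drug or vehicle, was repeated on 3 days; medium was renewed on day 4 and RNA was taken from cells of day 5. Each group had 2 libraries of polyadenylated RNA, 6 in all. The labels leave unstated whether the knockout line was 1 clone and whether libraries of a group were separate cultures. The p-values thus rest on the spread among libraries, possibly a technical one.

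The mitochondrial genome is a small circle copied into long transcripts from both strands. In the usual scheme, tRNAs lie between most mRNAs and rRNAs and mark the points where RNase P and ELAC2 cut the transcript. Most of the released mRNAs are then polyadenylated and are held by the LRPPRC and SLIRP proteins. All 13 mRNAs encode subunits of the oxidative phosphorylation complexes, and the rRNAs and tRNAs serve the mitochondrial ribosome that translates them. Clear cell renal carcinoma is known for low oxidative phosphorylation.

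Several mRNAs end so close to the next gene that their stop codon is completed by the poly(A) tail. Of the 13 mRNAs, 6 ended in an incomplete stop and 7 in a complete one. The last 30 bases of 6 annotated mRNA genes on which the results turn are printed 5′ to 3′ from GENCODE v29 transcripts, build GRCh38. The annotation ends these genes at the stop, and the ends of the RNA itself were not measured. Capitals mark the stop codon, or the part of it that the gene encodes. MT-ND2 showed the largest fall of the class against DMSO and MT-ND3, at 300 nM, the only rise, and both stop at a single T. MT-CO2 showed the smallest called fall at 300 nM. MT-CO1 gave the most mRNA reads, MT-ND1 follows MT-RNR2 on the same transcript, and MT-ND6 is the only mRNA of the opposite strand.
MT-ND1, chrM:4233-4262, plus strand: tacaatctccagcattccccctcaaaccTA
MT-ND2, chrM:5482-5511, plus strand: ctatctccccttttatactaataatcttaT
MT-CO1, chrM:7416-7445, plus strand: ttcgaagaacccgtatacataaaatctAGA
MT-CO2, chrM:8240-8269, plus strand: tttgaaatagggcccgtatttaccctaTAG
MT-ND3, chrM:10375-10404, plus strand: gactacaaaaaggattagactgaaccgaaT
MT-ND6, chrM:14149-14178, minus strand: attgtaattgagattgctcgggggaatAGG

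MT-ATP8 and MT-ATP6 share 46 bases and lie on 1 transcript, so their reads cannot be fully told apart. The shared stretch opens with the ATG of MT-ATP6 and closes with the TAG of MT-ATP8, both in capitals. MT-ND4L and MT-ND4 likewise share 7 bases. The table header names no option for reads that overlap several genes, which featureCounts by default leaves uncounted.
MT-ATP6 start and MT-ATP8 end, chrM:8527-8572, plus strand: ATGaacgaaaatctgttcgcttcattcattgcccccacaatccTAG

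Among the tRNAs, MT-TP carries proline and is the last gene of the annotation, on the minus strand. It is shown whole because it took nearly all tRNA reads.
MT-TP, chrM:15956-16023, minus strand: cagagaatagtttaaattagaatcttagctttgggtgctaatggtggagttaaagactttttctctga

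The libraries held 89159112 to 96646427 reads assigned to genes. Levels are given as CPM, read counts scaled to a common library total with TMM factors, and such a level is relative: less RNA from mitochondria and more RNA from the nucleus cannot be told apart, nor can fewer mitochondria and less RNA in each. A count of 3 reads corresponded to 0.0306 to 0.0362 CPM. Of the line's markers, PAX8, a renal lineage factor, was at 254 and 254 CPM in the DMSO libraries, 144 and 171 in those of 100 nM and 80.4 and 80.3 in those of 300 nM. Across the 3 doses CDH6 had a mean of 168.5, 37.2 and 20.3 CPM, PAX2 of 24.0, 15.3 and 17.9, EPAS1 of 139, 205 and 154, and VIM of 1819, 1816 and 2233. CA9 had no read with DMSO and a mean of 0.117 CPM at 100 nM and 0.288 at 300 nM. Of these 6 markers, PAX8, PAX2 and CDH6 fell and CA9 rose at both doses, EPAS1 rose at 100 nM only by the test, and VIM likewise at 300 nM only. The 10 markers of blood, vessel, muscle, tubule and podocyte cells stayed at or under 3.39 CPM in every library, and UMOD was at 0 throughout. SETD2 itself had a mean of 79.6, 44.4 and 19.1 CPM across the 3 doses, and with no SETD2-intact library here the knockout label could not be checked from the counts.

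The mitochondrial genome gave a smaller part of the reads with rising dose. Its 37 genes took 4.23% and 4.28% of assigned reads in the DMSO libraries, 3.42% and 3.56% in those of 100 nM and 2.55% and 3.08% in those of 300 nM. The groups did not overlap, and the 2 libraries at 300 nM lay further apart than those of the other groups. The shares of the rRNAs and tRNAs were above DMSO at both doses, and the fall lay in the mRNAs. They took 3.72% and 3.76% of reads in the DMSO libraries, 2.78% and 2.91% in those of 100 nM and 1.98% and 2.48% in those of 300 nM. As a sum of CPM, mRNAs were at 0.753 of the DMSO mean at 100 nM and at 0.642 of it at 300 nM.

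The other classes differed from this. Together the rRNAs took 0.509% and 0.523% of reads in the DMSO libraries, 0.632% and 0.647% in those of 100 nM and 0.564% and 0.595% in those of 300 nM. As shares of assigned reads they were lowest with DMSO and highest at 100 nM, with no overlap. As a sum of CPM, the doses overlapped each other. That sum was 6136 and 6241 in the libraries of 100 nM and 6169 and 6074 in those of 300 nM, above 4939 and 5162 in the DMSO libraries. For the tRNAs the shares were 0.00357% and 0.0031% in the DMSO libraries, 0.00611% and 0.00556% in those of 100 nM and 0.00806% and 0.00785% in those of 300 nM. Thus tRNA reads were few and nearly all from MT-TP, and their share was higher at each higher dose, again with no overlap. These shares are descriptions and carry no test.

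**Figure D1:**
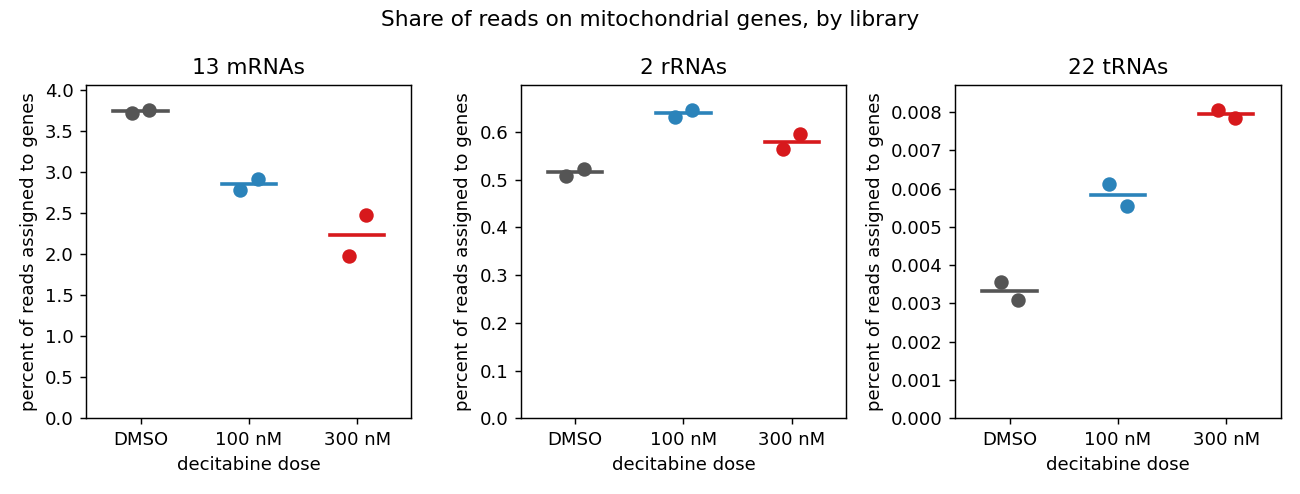
Percent of assigned reads (y axis) on the 13 mRNAs, 2 rRNAs and 22 tRNAs of the mitochondrial genome, by decitabine dose (x axis). Points are libraries and bars are means of 2. The mRNA share was lower at each higher dose, and the rRNA share was highest at 100 nM. As sums of CPM with TMM factors, the rRNAs at 100 nM and 300 nM overlapped. The tRNA share, nearly all MT-TP, was highest at 300 nM, at 0.00806% and 0.00785%.

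Across the transcriptome, decitabine changed many genes, which sets the background for each count of falls and rises. At 100 nM against DMSO, 18.7% of the 23160 genes tested were lower and 24.0% were higher at an adjusted p under 0.05. Of the 13 mitochondrial mRNAs, 10 fell and 0 rose. Their median log2 fold change was -0.42, beside 0.03 over all genes tested, and values ran from -0.94 to -0.06. The 3 mRNAs that did not pass the test were MT-CO2, MT-ND3 and MT-ND6. In 12 of the 13, both libraries at 100 nM lay below both DMSO libraries. No share over all genes tested is given for this separation, so that number describes the mRNAs alone.

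At 300 nM against DMSO, 31.1% of all genes were lower and 34.8% higher. Of the 13 mRNAs, 12 fell and 1, MT-ND3, rose. The median log2 fold change was -0.71, beside 0.05 over all genes, and values ran from -1.02 to 0.44. In each of the 12 that fell, both 300 nM libraries lay below both DMSO libraries. For this separation too, no share over all genes is given. Both comparisons use the same DMSO libraries. Between the doses, 300 nM against 100 nM, 23.4% of all genes were lower and 20.0% higher, and 5 mRNAs fell while 1 rose. The 5 were MT-CO1, MT-ND4, MT-ND4L, MT-ND5 and MT-ND6. That count depends on single libraries: it was 2 without replicate 2 at 100 nM and 8 without replicate 2 at 300 nM.

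**Figure D2:**
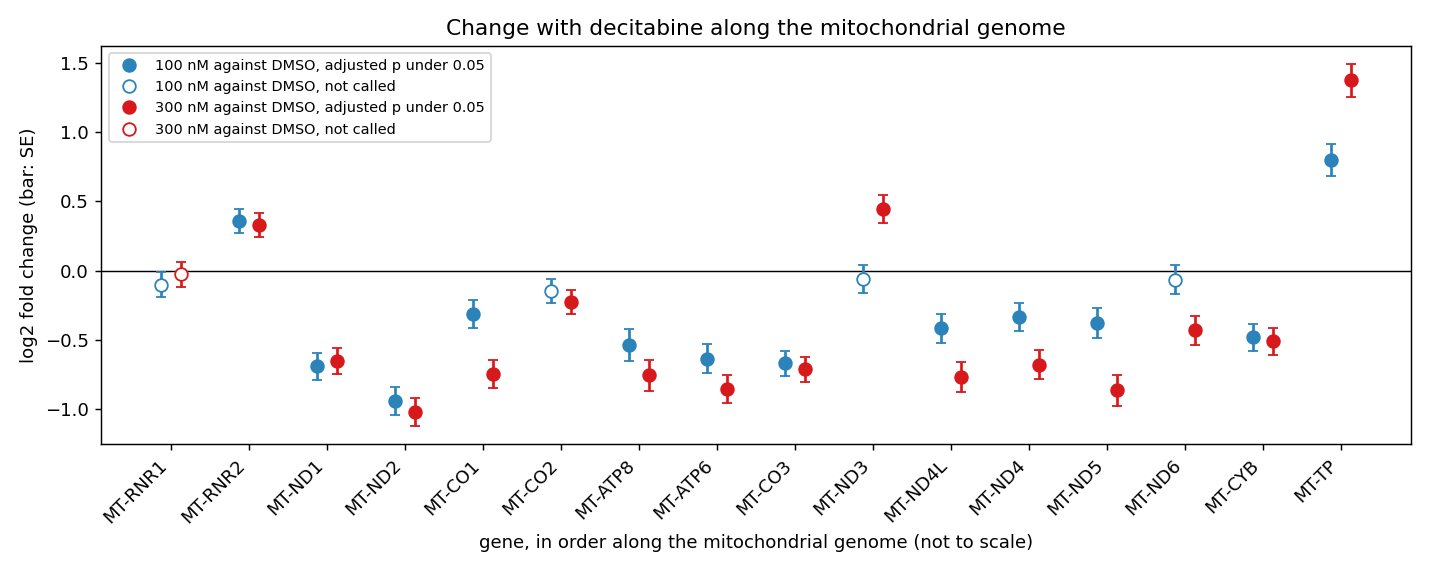
Log2 fold change against DMSO (y axis, bars are standard errors) for the tested mitochondrial genes but MT-TF, in gene order along the genome (x axis, not to scale). Filled points passed an adjusted p of 0.05. Most mRNAs lie below 0 at both doses, with MT-ND2 lowest at -0.94 and -1.02, while MT-RNR2, MT-TP and, at 300 nM, MT-ND3 lie above 0.

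Complex I, the NADH dehydrogenase that feeds electrons into the chain, holds 7 of the encoded subunits. At 100 nM 5 of these fell, and at 300 nM 6 fell and 1 rose. MT-ND2, a membrane subunit of the proton-pumping arm, was at 2879.5 and 2941 CPM in the DMSO libraries, 1483 and 1543 in those of 100 nM and 1298 and 1574 in those of 300 nM. Both doses were far below DMSO and overlapped each other. Its log2 fold change against DMSO was -0.94 ± 0.10 (SE, adjusted p = 8.0e-07) at 100 nM and -1.02 ± 0.10 (adjusted p = 1.2e-07) at 300 nM, the largest fall among the mRNAs at both doses.

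MT-ND1, the subunit at the quinone-binding junction, had the same shape. Its level was 1773 and 1851 CPM in the DMSO libraries, 1129 and 1114 in those of 100 nM and 1069 and 1235 in those of 300 nM. The doses overlapped each other and lay below DMSO. Relative to DMSO, the log2 fold change came to -0.69 ± 0.10 at 100 nM (adjusted p = 1.6e-05) and -0.65 ± 0.10 at 300 nM (adjusted p = 1.3e-05).

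MT-ND4L, MT-ND4 and MT-ND5 fell at each dose step. MT-ND5, which forms the outermost proton channel, was at 2372 and 2471 CPM in the DMSO libraries, 1825 and 1898 in those of 100 nM and 1149 and 1508 in those of 300 nM. No groups overlapped. In the fit, its log2 fold change stood at -0.38 ± 0.11 at 100 nM (adjusted p = 0.0107), -0.87 ± 0.11 at 300 nM (adjusted p = 3.1e-06) and -0.49 ± 0.11 between the doses (adjusted p = 0.002). The call at 100 nM was lost without replicate 1 at 100 nM (adjusted p = 0.0746) or without DMSO replicate 2 (adjusted p = 0.0593).

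MT-ND4L and MT-ND4 share 1 transcript, and both encode membrane subunits. MT-ND4 was at 5266 and 5473 CPM in the DMSO libraries, 4082 and 4426 in those of 100 nM and 2997 and 3708 in those of 300 nM. For MT-ND4L the levels were 564 and 564 CPM in the DMSO libraries, 415 and 428 in those of 100 nM and 294 and 367 in those of 300 nM. In both, the 3 groups were in order of dose with no overlap. Log2 fold changes at 300 nM against DMSO were -0.68 ± 0.10 for MT-ND4 and -0.77 ± 0.11 for MT-ND4L. At 100 nM they were -0.34 ± 0.10 for MT-ND4 and -0.42 ± 0.11 for MT-ND4L. The MT-ND4 call at 100 nM was lost without replicate 1 at 100 nM (adjusted p = 0.144) or without DMSO replicate 2 (adjusted p = 0.0859).

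MT-ND6 is transcribed from the strand opposite to the other 12 mRNAs, and its mRNA is described as lacking a long poly(A) tail. It was at 460.4 and 475 CPM in the DMSO libraries, 436 and 458 in those of 100 nM and 308 and 385 in those of 300 nM. Only the 300 nM libraries stood clearly apart. Set against DMSO, its change on the log2 scale was -0.06 ± 0.11 at 100 nM (adjusted p = 0.669) and -0.43 ± 0.11 at 300 nM (adjusted p = 0.0021). Between the doses it was -0.37 ± 0.11 (adjusted p = 0.0108). As a ratio to the summed reads of the other 12 mRNAs, MT-ND6 stood at 1.29% and 1.30% in the DMSO libraries, 1.64% and 1.66% in those of 100 nM and 1.44% and 1.55% in those of 300 nM. As far as the header shows, the counting did not use strand. RNA of either strand across the MT-ND6 gene was thus counted for it, and these values are not of its own strand alone.

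MT-ND3, a short subunit whose loop takes part in the active-to-deactive switch of complex I, went the other way at the higher dose. It was at 476 and 471 CPM in the DMSO libraries, 479 and 428 in those of 100 nM and 679 and 609 in those of 300 nM. DMSO and 100 nM overlapped, and both 300 nM libraries lay above all others. On the log2 scale the fold change against DMSO was -0.06 ± 0.10 at 100 nM (adjusted p = 0.654), 0.44 ± 0.10 at 300 nM (adjusted p = 8.1e-04) and 0.51 ± 0.10 between the doses (adjusted p = 5.6e-04). Within a library, MT-ND3 reads were 16.5% and 16.0% of MT-ND2 reads in the DMSO libraries, 32.3% and 27.7% in those of 100 nM and 52.3% and 38.7% in those of 300 nM. This ratio does not depend on how libraries are scaled. It pairs the only rise with the largest fall, so it also moves with MT-ND2. Of all mitochondrial mRNA reads, MT-ND3 gave 1.32% and 1.27% in the DMSO libraries. This share was 1.77% and 1.52% in the libraries of 100 nM and 3.14% and 2.41% in those of 300 nM. Offsets for length and GC content were fitted on nuclear genes with a median length of 5142 bases, and MT-ND3 has 346. With these offsets the rise against DMSO did not pass. The log2 fold change was then 0.07 at 300 nM (adjusted p = 0.559) and -0.82 at 100 nM (adjusted p = 8.4e-06). Over all genes the median was then -0.41 at 300 nM and -0.32 at 100 nM. MT-ND3 lay above that median at 300 nM and below it at 100 nM.

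Complex III, the cytochrome bc1 complex, has 1 encoded subunit, cytochrome b. MT-CYB was at 2028 and 2073 CPM in the DMSO libraries, 1479 and 1458 in those of 100 nM and 1310.5 and 1569 in those of 300 nM. The doses overlapped and lay below DMSO. For this gene the fitted log2 fold change amounted to -0.48 ± 0.10 at 100 nM (adjusted p = 7.5e-04) and -0.51 ± 0.10 at 300 nM (adjusted p = 2.3e-04).

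Complex IV, cytochrome c oxidase, has 3 encoded subunits that form its catalytic core. MT-CO1, which carries the oxygen-reducing site, was at 9584 and 9766 CPM in the DMSO libraries, 7422 and 8150.4 in those of 100 nM and 5239.9 and 6291 in those of 300 nM. No groups overlapped. Relative to DMSO, the log2 fold change came to -0.31 ± 0.10 at 100 nM (adjusted p = 0.0159), -0.75 ± 0.10 at 300 nM (adjusted p = 3.9e-06) and -0.43 ± 0.10 between the doses (adjusted p = 0.00184). At 100 nM the call was lost without DMSO replicate 1 (adjusted p = 0.0562), without DMSO replicate 2 (adjusted p = 0.0838) and without replicate 1 at 100 nM (adjusted p = 0.187).

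MT-CO3, a subunit beside the catalytic pair, was lower already at the lower dose. It was at 3179 and 3362 CPM in the DMSO libraries, 2061 and 2053 in those of 100 nM and 1906 and 2079 in those of 300 nM. The doses overlapped. In the fit, its log2 fold change stood at -0.67 ± 0.09 at 100 nM and -0.71 ± 0.09 at 300 nM, with adjusted p = 1.2e-05 and 2.4e-06.

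MT-CO2, the subunit that takes electrons from cytochrome c, moved little. It was at 5020.1 and 4934 CPM in the DMSO libraries, 4569 and 4405 in those of 100 nM and 4099 and 4403 in those of 300 nM. The groups were in order of dose with no overlap, but the steps were small. Set against DMSO, its change on the log2 scale was -0.15 ± 0.09 at 100 nM (adjusted p = 0.185) and -0.23 ± 0.09 at 300 nM (adjusted p = 0.0298). That last call was lost with DESeq2 (adjusted p = 0.0736), with limma on the deposited log2 matrix (adjusted p = 0.142), with 300 nM and DMSO alone in the fit (adjusted p = 0.0714) and without DMSO replicate 1 (adjusted p = 0.166) or DMSO replicate 2 (adjusted p = 0.120). MT-CO2 made up 13.9% and 13.3% of mitochondrial mRNA reads in the DMSO libraries, 16.9% and 15.7% in those of 100 nM and 18.9% and 17.4% in those of 300 nM.

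Complex V, the ATP synthase, has 2 encoded subunits of its membrane part. MT-ATP6, which lines the proton path, was at 2319.5 and 2531 CPM in the DMSO libraries, 1526 and 1594 in those of 100 nM and 1214 and 1467 in those of 300 nM. No groups overlapped. On the log2 scale the fold change against DMSO was -0.64 ± 0.10 at 100 nM (adjusted p = 7.6e-05) and -0.86 ± 0.10 at 300 nM (adjusted p = 1.3e-06). MT-ATP8, whose end is shared with MT-ATP6, was at 167 and 175 CPM in the DMSO libraries, 114 and 121 in those of 100 nM and 90.0 and 112 in those of 300 nM. Its log2 fold change of -0.54 ± 0.11 at 100 nM and -0.76 ± 0.11 at 300 nM was of similar size.

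**Figure D3:**
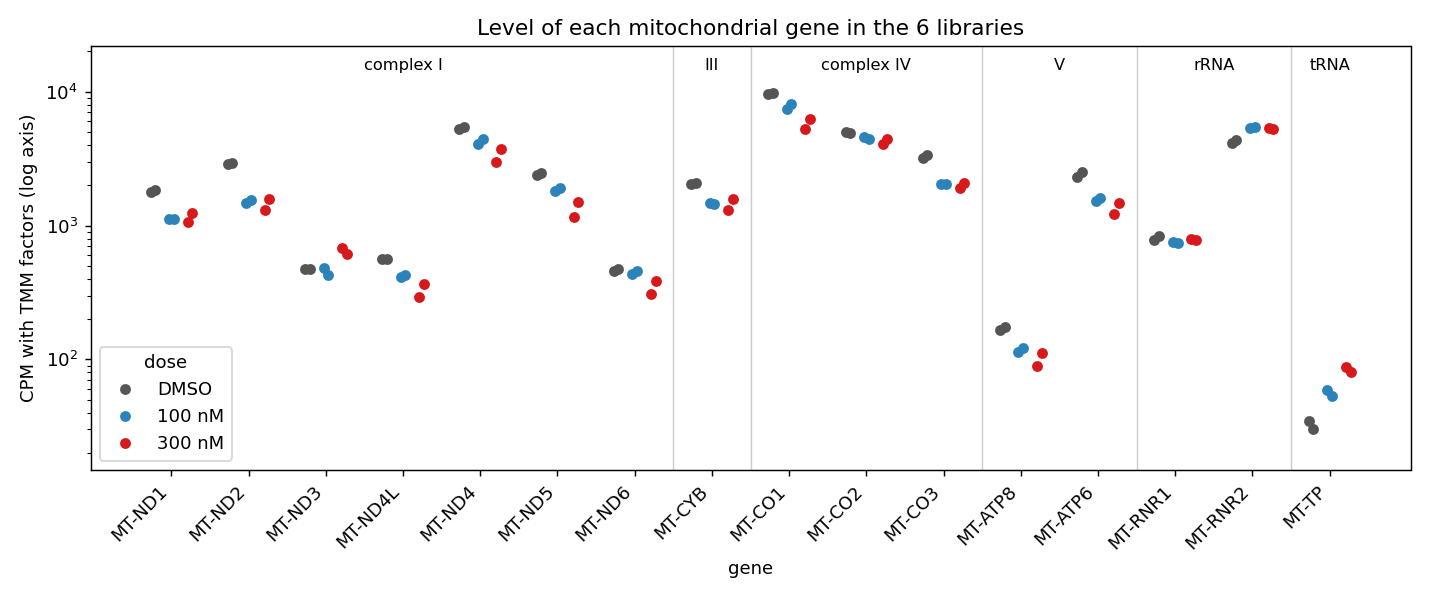
CPM with TMM factors on a log axis (y axis) for each tested mitochondrial gene but MT-TF (x axis, grouped by complex or RNA class), with 1 point per library and colour by dose. MT-ND2 is lower at both doses than with DMSO, MT-CO1 and MT-ND5 are lower at each higher dose, MT-ND3 is highest at 300 nM, and MT-RNR1 lies between 743 and 831 CPM in all libraries.

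Replicates at 300 nM differed by more than those of the other groups. In 12 of the 13 mRNAs replicate 1 at 300 nM was below replicate 2, and the SD was 5.05% to 19.1% of the mean there. Its largest value among the mRNAs was 6.15% with DMSO and 7.92% at 100 nM. MT-ND3 was the mRNA for which replicate 1 was higher.

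Per length, the order of the mRNAs changed little. MT-CO2 was highest in every group, at 7276 CPM per kb with DMSO, 6559.8 at 100 nM and 6215 at 300 nM. MT-CO1 came second in each, at 6274, 5049 and 3739 CPM per kb. MT-ATP8 was lowest, at 824, 567 and 488 CPM per kb. It shares 46 of its 207 bases with MT-ATP6, and reads that overlap both are by default left uncounted. Its level per kb may therefore be too low, and so to a smaller degree may that of MT-ND4L, which shares 7 bases with MT-ND4. MT-ND3 moved up from the tenth place with DMSO to the eighth at 100 nM and the sixth at 300 nM, where its 1861 ± 144 CPM per kb lay beside 1968 ± 262 for MT-ATP6 (SD, n = 2 each), neighbours that do not differ beyond their spread.

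Ranges of change overlapped between the stop codon types, and their difference was not tested. At 100 nM against DMSO, log2 fold changes ran from -0.94 to -0.06 for the 6 mRNAs with an incomplete stop and from -0.64 to -0.06 for the 7 with a complete one. At 300 nM against DMSO, the 6 mRNAs with an incomplete stop had log2 fold changes from -1.02 (MT-ND2) to 0.44 (MT-ND3), and the 7 with a complete stop from -0.87 (MT-ND5) to -0.23 (MT-CO2). Both extremes of the class, MT-ND2 and MT-ND3, end in a single T. Across the 13 mRNAs, which share their libraries, the Pearson correlation of this change with length was -0.35 and with GC content -0.28. The Spearman values were -0.21 with length and 0.11 with GC content.

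The 2 rRNAs differed from the mRNAs and from each other in their values. MT-RNR2, the 16S rRNA of the large ribosomal subunit, was at 4166 and 4331 CPM in the DMSO libraries, 5382 and 5498 in those of 100 nM and 5371 and 5298 in those of 300 nM. Both doses lay above DMSO and near each other. For this gene the fitted log2 fold change amounted to 0.36 ± 0.09 at 100 nM (adjusted p = 0.0027) and 0.33 ± 0.09 at 300 nM (adjusted p = 0.0028). Without DMSO replicate 1 it no longer passed at either dose, with adjusted p = 0.0588 at 100 nM and 0.062 at 300 nM. With offsets for length and GC content its direction turned at 100 nM, to -0.15 (adjusted p = 0.0414). At 300 nM it was at 0.05 (adjusted p = 0.461). The median of all genes was then -0.32 at 100 nM and -0.41 at 300 nM, below MT-RNR2 at both doses.

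MT-RNR1, the 12S rRNA of the small subunit, lies just upstream on the same transcript. It was at 774 and 831 CPM in the DMSO libraries, 753 and 743 in those of 100 nM and 798 and 777 in those of 300 nM. DMSO and 300 nM overlapped, and neither dose passed the test: the log2 fold change was -0.10 ± 0.09 at 100 nM (adjusted p = 0.403) and -0.03 ± 0.09 at 300 nM (adjusted p = 0.805). Within a library the ratio of MT-RNR2 to MT-RNR1 reads was 5.38 and 5.21 in the DMSO libraries, 7.14 and 7.40 in those of 100 nM and 6.73 and 6.82 in those of 300 nM. Both rRNAs are read here only as far as they enter a poly(A) library, so the values are not total rRNA.

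Summed rRNA reads were higher relative to mRNA reads at both doses. They were 13.7% and 13.9% of the mRNA reads in the DMSO libraries, 22.7% and 22.2% in those of 100 nM and 28.5% and 24.0% in those of 300 nM. MT-RNR2 reads per MT-ND1 read, its downstream neighbour past 1 tRNA, were 2.35 and 2.34 in the DMSO libraries, 4.77 and 4.94 in those of 100 nM and 5.02 and 4.29 in those of 300 nM.

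**Figure D4:**
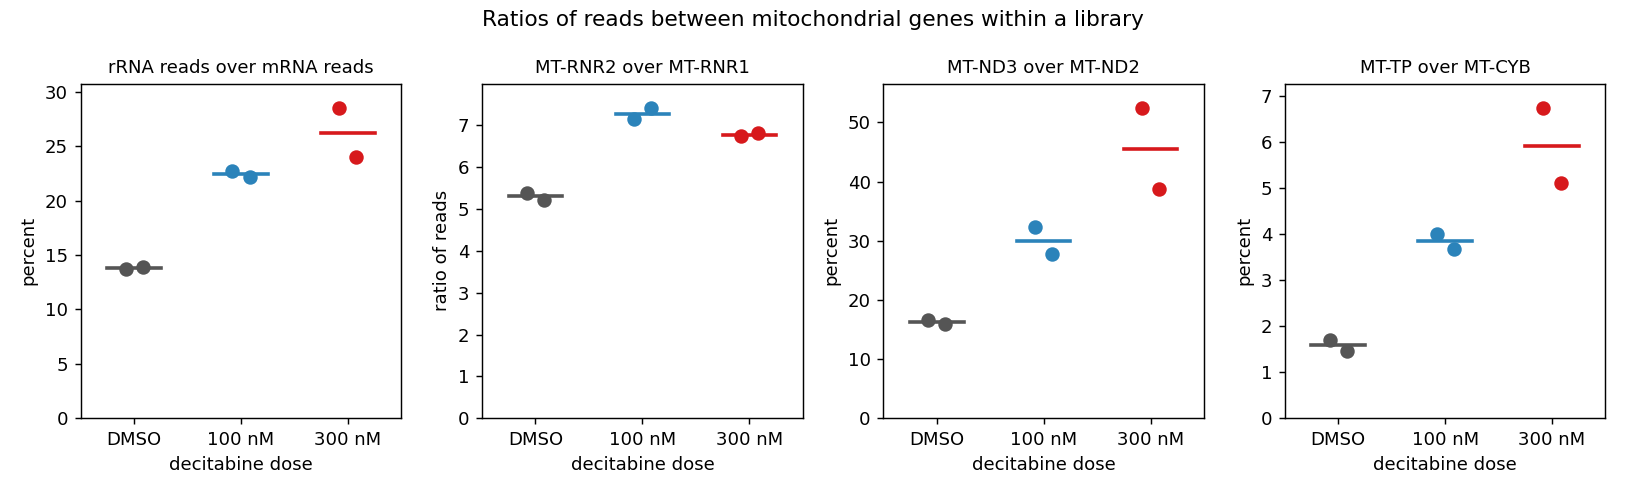
Ratios of reads within a library (y axes, percent or ratio) by decitabine dose (x axes). Points are libraries and bars are means of 2. In all 4 ratios both doses lie above DMSO; MT-ND3 over MT-ND2 reaches 52.3% and 38.7% at 300 nM, and MT-RNR2 over MT-RNR1 is highest at 100 nM, at 7.14 and 7.40.

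Of the 22 tRNAs, 16 had no read in any library and 6 had reads. Those with reads were MT-TF, MT-TP, MT-TN, MT-TC, MT-TL1 and MT-TQ, and only MT-TF and MT-TP passed the filter on low counts. The other 20 tRNAs together make up all members below the filter, with at most 10 reads summed over libraries. The tRNA genes are 59 to 75 bases long, and mature tRNAs carry no long poly(A) tail. Of the 22, 16 lie within 10 bases of a gene on both sides, in part the same as the 16 without reads. By default, reads that overlap several genes are left uncounted. MT-TF and MT-TP are the first and the last gene of the annotation, so no annotated gene lies beyond them. How far this sets the tRNA counts was not tested.

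MT-TP gave 99.1% to 99.9% of the tRNA reads in each library. It was at 34.4 and 30.3 CPM in the DMSO libraries, 59.3 and 53.5 in those of 100 nM and 88.1 and 80.0 in those of 300 nM. The groups were in order of dose with no overlap. Relative to DMSO, the log2 fold change came to 0.80 ± 0.12 at 100 nM (adjusted p = 2.9e-05), 1.38 ± 0.12 at 300 nM (adjusted p = 1.9e-08) and 0.58 ± 0.12 between the doses (adjusted p = 7.2e-04). With the length and GC offsets the rise at 100 nM did not pass (0.23, adjusted p = 0.142), beside a median of -0.32 over all genes. These offsets were fitted on nuclear genes with a median length of 5142 bases, and MT-TP has 68. At 300 nM MT-TP was 2.59-fold higher than with DMSO, the largest change among the tested members that were called. The nearest mRNA gene, MT-CYB on the other strand, fell, and the ratio of MT-TP to MT-CYB reads was 1.70% and 1.46% in the DMSO libraries, 4.01% and 3.67% in those of 100 nM and 6.72% and 5.10% in those of 300 nM. The counting did not use strand, as far as the header shows, so RNA of either strand across the MT-TP gene was counted for it.

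MT-TF, which carries phenylalanine and is the first gene of the annotation, had 15 and 21 reads in the DMSO libraries, 5 and 9 in those of 100 nM and 5 and 5 in those of 300 nM. All treated libraries lay below both DMSO libraries. In the fit, its log2 fold change stood at -1.34 ± 0.84 at 100 nM (adjusted p = 0.215) and -1.72 ± 0.87 at 300 nM (adjusted p = 0.0906), and neither passed the test.

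Copies of mitochondrial genes in the nuclear genome can take reads from them. Of 407 such pseudogene copies in the tables, 24 were tested, and all copies together had 1.21% to 1.43% as many reads as the mitochondrial genes. MTATP6P1, 98.5% identical to MT-ATP6 over 681 bases, was at 10.3% to 12.7% of its level. Its log2 fold change of -0.54 at 100 nM and -0.70 at 300 nM stood beside -0.64 and -0.86 for MT-ATP6. MTCO1P12, 98.7% identical to MT-CO1, had -0.26 and -0.61, beside -0.31 and -0.75. MTRNR2L12, 95.04% identical to the matching part of MT-RNR2, had 0.25 and 0.30, beside 0.36 and 0.33. MTCO2P12, 98.2% identical to MT-CO2, had -0.014 and 0.04, beside -0.15 and -0.23. Values of these near-identical pairs are therefore uncertain, since reads could be split between them.

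The values depended on whether length and base composition were taken into account. The 13 mRNAs have a median length of 784 bases and 12419 nuclear coding genes expressed at 1 CPM or more on average have 5142. The offsets were fitted on these nuclear genes alone, with extreme lengths and GC contents set to limits taken from them. A member shorter than that limit received the offset of a longer gene. How well the offsets suit such members was not tested. When exon length and GC content entered the fit as offsets, the median of all genes shifted by -0.35 at 100 nM and by -0.45 at 300 nM (log2), and calls over all genes were 4703 higher and 9629 lower at 100 nM and 6080 higher and 10983 lower at 300 nM. All 13 mRNAs were then lower at 100 nM, with log2 fold changes from -1.92 (MT-ND1 and MT-CO3) to -0.82 (MT-ND3). At 300 nM 12 were lower, from -2.27 (MT-CO3) to -1.07 (MT-ATP8), and MT-ND3 was at 0.07 (adjusted p = 0.559). MT-RNR1 was then at -1.23 at 100 nM and -1.35 at 300 nM, and MT-TP at 1.61 at 300 nM. The fall of the other 12 mRNAs and the rise of MT-TP, both at 300 nM, kept their direction. MT-RNR2 turned to a fall at 100 nM, and its rise at 300 nM, that of MT-ND3 at 300 nM and that of MT-TP at 100 nM did not pass. These values stand beside a median of all genes, with the offsets, of -0.32 at 100 nM and -0.41 at 300 nM.

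The nuclear genes that serve the mitochondrial genome gave a mixed picture, and the counts are to be read beside the shares of all genes, 18.7% lower and 24.0% higher at 100 nM and 31.1% lower and 34.8% higher at 300 nM. Of 10 genes of mitochondrial transcription, 7 fell and 0 rose at 100 nM, and 7 fell and 1 rose at 300 nM, with a median log2 fold change of -0.57 and -1.08. POLRMT, the mitochondrial RNA polymerase, was at 216.5 and 219 CPM in the DMSO libraries, 146 and 136 in those of 100 nM and 251 and 204 in those of 300 nM. It fell at 100 nM (log2 fold change -0.63, adjusted p = 1.6e-04) and did not pass at 300 nM (0.06, adjusted p = 0.647). With the offsets for length and GC content it stood at -1.11 (100 nM) and -0.82 (300 nM). TFAM, which packages the genome and starts its transcription, was at 59.3 and 68.1 CPM in the DMSO libraries, 41.4 and 46.6 in those of 100 nM and 27.8 and 31.5 in those of 300 nM. Set against DMSO, its change on the log2 scale was -0.53 and -1.10, but -0.18 and 0.17 with the offsets. TFB2M, the partner of the polymerase at promoters, had -0.34 at 100 nM (adjusted p = 0.0604) and -1.06 at 300 nM.

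Among 33 genes of mitochondrial RNA processing and decay, 11 fell and 0 rose at 100 nM, and 12 fell and 7 rose at 300 nM. With the offsets, all genes tested gave 9629 falls and 4703 rises at 100 nM and 10983 and 6080 at 300 nM. Of the 33, 22 then fell and 4 rose at 100 nM, and 19 fell and 5 rose at 300 nM. Leaving out any 1 library of the pair left 5 to 7 falls at 100 nM: 5 without DMSO replicate 2, 6 without replicate 1 at 100 nM, and 7 without DMSO replicate 1 or without replicate 2 at 100 nM. LRPPRC, which holds and stabilises the mRNAs, was at 203 and 216 CPM in the DMSO libraries, 116 and 148 in those of 100 nM and 46.5 and 60.5 in those of 300 nM. No groups overlapped, and the log2 fold change was -0.67 (adjusted p = 6.1e-04) and -1.97 (adjusted p = 1.4e-09), or -0.36 and -0.96 with the offsets. PNPT1, the exonuclease that degrades mitochondrial RNA, was at 0.29 at 100 nM (adjusted p = 0.102) and -0.97 at 300 nM (adjusted p = 1.2e-05), or -0.094 at 300 nM with the offsets. FASTKD1 and FASTKD2, RNA-binding proteins of this list, had -2.03 and -1.91 at 300 nM, and -0.79 and -0.42 with the offsets.

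Of 18 genes of replication and nucleotide supply, 3 fell and 3 rose at 100 nM, and 5 fell and 7 rose at 300 nM. The balance turned with the offsets, to 12 falls and 4 rises at 100 nM and 13 falls and 3 rises at 300 nM. Over all genes it turned too, to 9629 falls and 4703 rises at 100 nM and 10983 and 6080 at 300 nM. POLG, the replicative polymerase, had a log2 fold change of 0.52 at 300 nM (adjusted p = 4.1e-04), and TWNK, the replicative helicase, 0.50 (adjusted p = 9.3e-04). With the offsets these were -0.34 and -0.24. SLC25A33, a pyrimidine nucleotide carrier, was at 0 and 0.0319 CPM in the DMSO libraries, 2.04 and 1.51 in those of 100 nM and 7.62 and 8.81 in those of 300 nM. Of 10 genes of mitochondrial biogenesis, 6 fell and 2 rose at each dose against DMSO. At 100 nM only 3 fell without replicate 2 at 100 nM, and 2 without replicate 1 at 100 nM or without either DMSO library. PPARGC1A, a coactivator of that programme, was low throughout, at 2.61 and 1.93 CPM in the DMSO libraries, 0.428 and 0.931 in those of 100 nM and 0.314 and 0.211 in those of 300 nM.

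Most nuclear subunits of the same complexes that were called at 300 nM rose. Of 72 nuclear subunits of complexes I, III, IV and V, 9 rose and 6 fell at 100 nM, and 41 rose and 10 fell at 300 nM, with a median log2 fold change of 0.04 and 0.35. In complex IV, 9 of 11 nuclear subunits rose at 300 nM and 0 fell, while the 3 encoded subunits fell. COX5B, for example, was at 99.9 and 91.6 CPM in the DMSO libraries, 147 and 129 in those of 100 nM and 202 and 181 in those of 300 nM. Over the 72, the counts turned with the offsets, as did those over all genes tested. Then 7 rose and 50 fell at 100 nM, with a median of -0.54, and 22 rose and 43 fell at 300 nM, with a median of -0.53. The median of all genes was then -0.32 and -0.41. Complex IV had 1 rise and 5 falls at 100 nM, with a median of -0.15. At 300 nM it did not turn, with 7 rises, 4 falls and a median of 0.39. COX5B went against this majority, at -0.47 at 300 nM. At 100 nM the 9 rises also depended on single libraries: they were 2 without replicate 1 at 100 nM or without DMSO replicate 2, 3 without DMSO replicate 1 and 13 without replicate 2 at 100 nM. The difference between nuclear and encoded subunits was not itself tested.

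**Figure D5:**
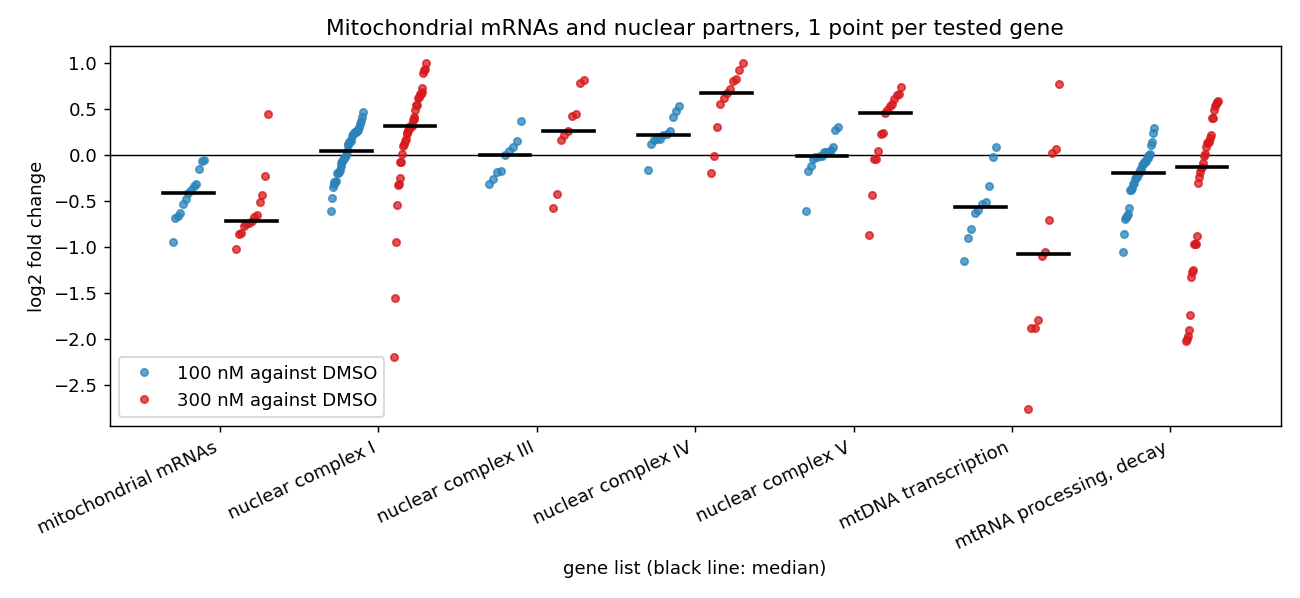
Log2 fold change against DMSO (y axis) of each tested gene in 7 groups (x axis), at 100 nM and 300 nM, with black lines for medians. At 300 nM the mitochondrial mRNAs have a median of -0.71, nuclear complex IV subunits 0.67 and genes of mitochondrial transcription -1.08; with offsets for length and GC content complex IV is at 0.39.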

How the data were processed

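Polyadenylated RNA was sequenced from 6 libraries. Per the file headers, the authors made raw read counts per gene with featureCounts 1.5.0-p3 on GENCODE v28, and the header shows no paired-end, strand or multi-mapping option. Per the submitters' processing notes, STAR, SAMtools and DESeq2 were also used. These notes name hg19, but all 37 mitochondrial genes have the GENCODE v29 coordinates of GRCh38. Symbols came from GENCODE v29 for 58261 of 58381 genes. The authors also deposited a matrix of log2 expression values, used only as an alternative. Of counts from 1 to 10, 70.0% to 74.4% were even, so many fragments may be counted as 2 reads, and floors cover counting error only.

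Counts were tested with the edgeR 4.0.16 quasi-likelihood test (R 4.3.3): TMM factors, filterByExpr, all 6 libraries in 1 fit with 3 residual degrees of freedom, two-sided, Benjamini-Hochberg adjustment over 23160 genes, called under 0.05. The biological coefficient of variation was 11.8%. Alternatives used limma 3.58.1 and DESeq2 1.42.0. The procedure was tested on simulated counts. Members and lists were chosen with earlier results of these data known. All members are named. Of each nuclear list, up to 4 called genes of smallest adjusted p at 300 nM and 8 preset genes could be named, and of pseudogene copies the 4 of highest level.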

Additional observations from a re-analysis of the deposited data

How the results depend on the processing

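Precision is limited by 2 libraries a group and by the spread at 300 nM. Mitochondrial mRNAs lower than DMSO numbered 7 to 13 at 100 nM and 11 or 12 at 300 nM under the alternatives run, with 0 higher at 100 nM and at most 1 at 300 nM; the 7 arose without replicate 1 at 100 nM and without DMSO replicate 2. With offsets for length and GC content, the counts at 100 nM were 0 rRNAs higher and 2 lower, and 0 tRNAs higher and 1 lower; at 300 nM they were 0 mRNAs higher, 0 rRNAs higher and 1 lower, and 1 tRNA lower; between the doses 10 mRNAs were lower and 2 higher and 1 rRNA was higher. The tRNA that was then lower was MT-TF. Library totals without TMM factors gave 8 mRNAs lower between the doses; over all genes, 3360 were then higher and 6181 lower, and the median of all genes shifted by -0.12 there and by -0.11 at 300 nM against DMSO. Leaving out 1 library at a time, mRNAs lower between the doses numbered 2 to 8, and rRNAs higher than DMSO 0 to 1 at each dose.

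With nuclear reads as denominator, mRNAs were at 3.90% with DMSO and 2.95% at 100 nM, and rRNAs at 0.539% with DMSO and 0.663% at 100 nM. Per length, the MT-RNR2 to MT-RNR1 ratio was 3.24 with DMSO, 4.45 at 100 nM and 4.15 at 300 nM.

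Of the log2 fold changes that changed sign under an alternative, 1 was a called change, MT-RNR2 at 100 nM against DMSO. It was at 0.36 in the report and at -0.15 with the offsets, where the median of all genes was -0.32. The other changes of sign were in values that did not pass the test in the report. With the offsets, between the doses MT-RNR1 was at -0.12, MT-RNR2 at 0.20, MT-ND1 at -0.32, MT-ND2 at 0.025 and MT-ATP8 at 0.20. With library totals only, MT-RNR1 was at -0.052 and MT-ND1 at -0.083 between the doses. At 300 nM against DMSO, MT-RNR1 was at 0.0073 with DESeq2, 0.0073 with its size factors in edgeR and 0.0094 with limma on the deposited log2 matrix. Between the doses, these 3 gave 0.045, 0.045 and 0.045 for MT-RNR2, 0.027, 0.027 and 0.026 for MT-CO3 and 0.044, 0.044 and 0.039 for MT-CYB. Leaving out 1 library at a time, MT-ND3 at 100 nM against DMSO ranged from -0.12 to 0.021 (the high value without replicate 2 at 100 nM) and MT-RNR1 at 300 nM against DMSO from -0.084 to 0.019 (without DMSO replicate 2). Between the doses, the ranges were -0.79 to 0.14 for MT-TF (the high value without replicate 2 at 100 nM) and -0.071 to 0.14 for MT-ND1 (the low value without replicate 2 at 300 nM). They were -0.22 to 0.056 for MT-ND2, -0.11 to 0.014 for MT-CO3 and -0.17 to 0.095 for MT-CYB, with the high values without replicate 1 at 300 nM. The cause was not tested.

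Differences between replicates correlated weakly between groups, at 0.0075 to 0.075 over 23160 genes. The labels do not say whether equal replicate numbers mark paired libraries, and weak correlations cannot decide it. With the replicate number as a block, MT-ATP6 (-0.22, adjusted p = 0.0294) and MT-ATP8 (-0.22, adjusted p = 0.0325) also passed between the doses; 7 mRNAs were then lower between the doses, and the numbers against DMSO stayed at 10 and 12.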
